A study of Drosophila melanogaster with 8 samples.

Results

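The 37 genes described here encode secreted digestive enzymes of the Drosophila larval gut. They were chosen by name alone from the 13970 genes of the expression table: 16 Jonah proteases (symbols that start with Jon and a digit), 11 trypsins (symbols that end in Try), 8 maltases (Mal-A1 to Mal-A8) and the 2 amylases Amy-p and Amy-d. Jonah proteases are serine endopeptidases that are made in the larval midgut. Trypsins are serine endopeptidases that cut proteins after lysine and arginine. Amylases break starch into short sugars, and maltases are alpha-glucosidases that release glucose from those sugars. Enzymes of these families are made mainly by enterocytes of the midgut, translated at the endoplasmic reticulum and secreted into the gut lumen.

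Cytosolic and mitochondrial fractions were prepared by differential centrifugation from whole larvae of 4 days after egg laying. Control larvae (w;;) were compared with dmpnpaseKO larvae, homozygous for a CRISPR/Cas9 frame shift in CG11337, the gene of the mitochondrial RNA-degrading enzyme PNPase, both in the wDah background. RNA of each fraction was immunoprecipitated with J2, an antibody to double-stranded RNA of any sequence, and sequenced with 2 libraries for each combination of genotype and fraction, 8 in all. Levels are TPM, each gene's share of a library after correction for transcript length, so levels of different genes can be compared but the read depth behind them is unknown. Libraries made without immunoprecipitation were not analysed here, so abundance in the fraction and recovery by J2 cannot be told apart. In RNA of whole larvae, fewer gut cells and less RNA per gut cell cannot be told apart either.

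Nearly all TPM fell on nuclear rRNA and on genes of the mitochondrial genome, and all nuclear-encoded genes other than rRNA together took 0.0446% to 0.159% in 6 of the 8 libraries, and 1.18% and 0.586% in dmpnpaseKO mitochondria replicates 1 and 2. The number of genes above 0 ranged from 61 in dmpnpaseKO cytosol replicate 2 to 11051 in dmpnpaseKO mitochondria replicate 1. A gene listed at 0 in the former library is therefore not read as absent. CG11337 was above 0 only in replicate 1 of control mitochondria (0.0197 TPM) and of dmpnpaseKO mitochondria (0.0415 TPM), so its level does not check the labels. The labels do not say whether the replicates came from separate groups of larvae, so the p-values below measure the spread between libraries only.

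Digestive enzyme genes were detected in the mitochondrial fraction far more than in the cytosolic fraction. Of the 37 genes, 34 and 27 were above 0 in the control mitochondria and 36 in each of the dmpnpaseKO mitochondrial libraries. In the control cytosol 6 and 5 were above 0, in dmpnpaseKO cytosol replicate 1 there were 17, and in replicate 2 all were listed at 0. As a share this was 91.9% and 73.0% in control mitochondria, where 62.7% and 34.7% of all genes of the table were above 0. In dmpnpaseKO mitochondria it was 97.3% in both libraries, beside 79.1% and 55.0% of all genes. In the control cytosol it was 16.2% and 13.5%, where 984 and 2093 of the 13970 genes were above 0, so there the enzymes exceeded the share of all genes in replicate 1 only. In dmpnpaseKO cytosol it was 45.9% in replicate 1, beside 33.9% of all genes, and 0% in replicate 2, beside 0.437%.

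**Figure D1:**
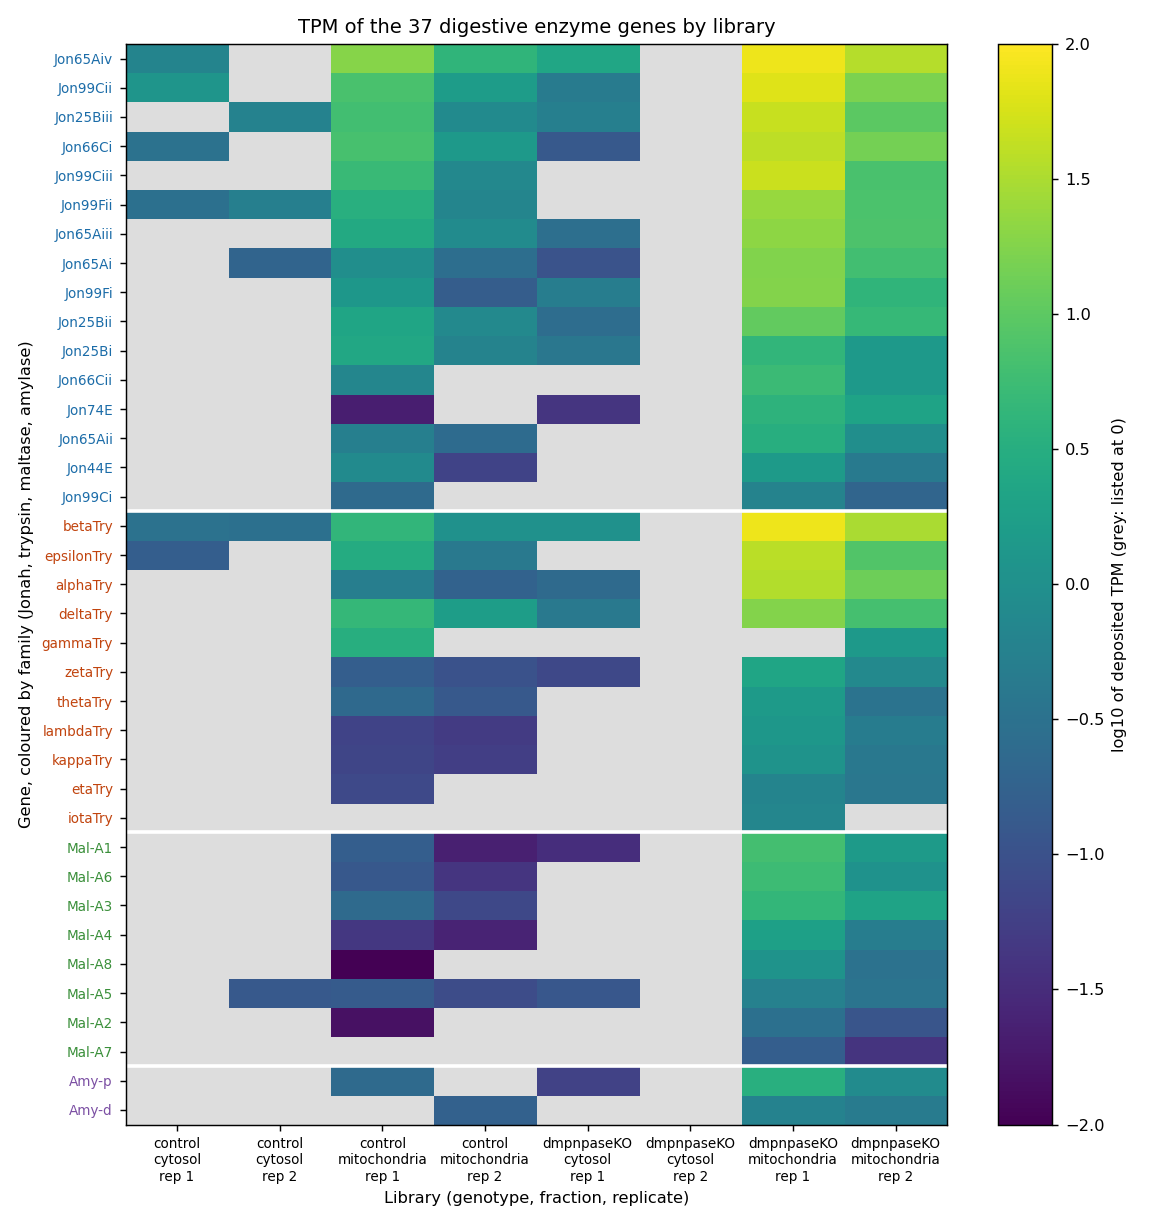
Deposited TPM of the 37 digestive enzyme genes (vertical axis, label colour gives the family) in each of the 8 libraries (horizontal axis). Colour is log10 of TPM and grey marks a value listed at 0. The mitochondrial columns are filled for nearly all genes and brightest in dmpnpaseKO, and dmpnpaseKO cytosol replicate 2 is empty.

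The families differed in level in the same order in each mitochondrial library, Jonah proteases above trypsins, trypsins above maltases and maltases above amylases. In control mitochondria the Jonah proteases summed to 59.2 and 12.5 TPM, the trypsins to 16.1 and 3.69, the maltases to 0.730 and 0.250, and the amylases to 0.240 and 0.177. In dmpnpaseKO mitochondria the sums were 387 and 119.9 TPM for Jonah proteases, 178 and 63.4 for trypsins, 20.4 and 6.03 for maltases, and 3.93 and 1.33 for amylases. Both knockout libraries thus lay above both controls in each family. In the cytosolic fraction all 37 genes together summed to only 2.94 and 1.74 TPM in controls and to 7.04 and 0 TPM in dmpnpaseKO, with the control values between those of the knockout libraries.

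**Figure D2:**
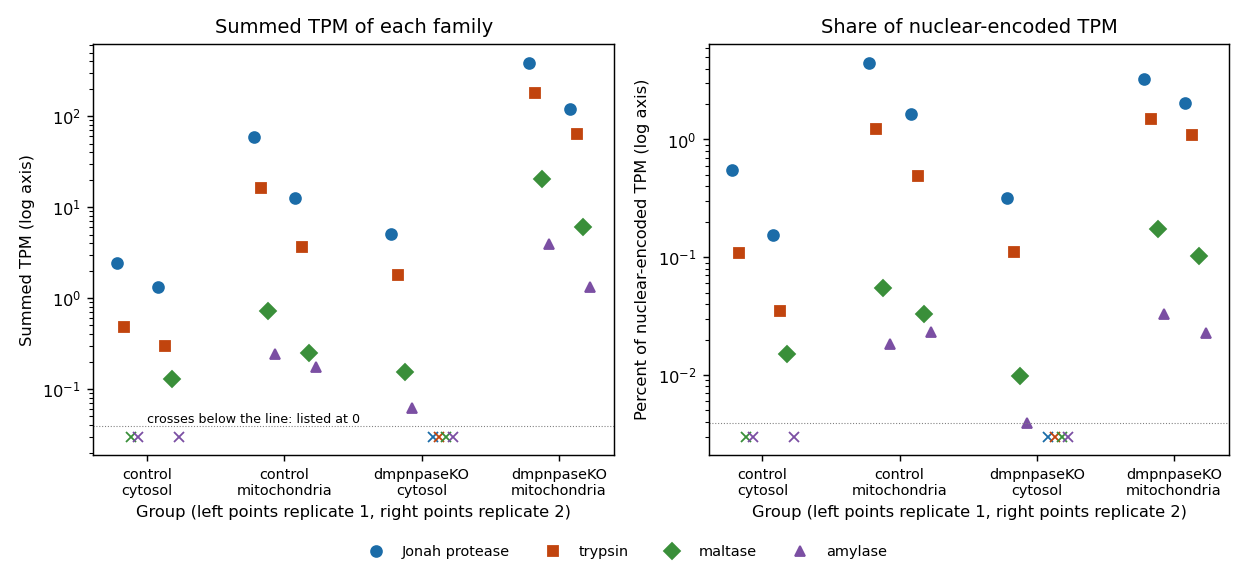
Summed TPM of each enzyme family (left) and its percent of all nuclear-encoded TPM other than rRNA (right), both on log axes, for each library, with replicate 1 at the left and replicate 2 at the right of each group. Crosses mark families listed at 0. Sums in dmpnpaseKO mitochondria exceed those in control mitochondria for each family, while the shares of the Jonah proteases (4.49% and 1.65% in controls, 3.27% and 2.05% in dmpnpaseKO) overlap.

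Set against the other nuclear-encoded RNA, the enzymes stood higher in the mitochondrial fraction. They made up 5.78% and 2.20% of the nuclear-encoded TPM in control mitochondria and 0.659% and 0.205% in the control cytosol. In dmpnpaseKO they made up 4.98% and 3.25% in mitochondria and 0.443% and 0% in the cytosol. In deposited TPM, both mitochondrial libraries exceeded both cytosolic ones for 25 of the 37 genes in controls and for 35 in dmpnpaseKO, beside 29.5% and 61.9% of all genes above 0 in any library, and 73.1% and 85.3% of those with a mean of at least 1 TPM. By the share of nuclear-encoded TPM, 24 of the 37 genes had both control mitochondrial libraries above both cytosolic ones, where 27.9% of all nuclear-encoded genes above 0 in any library did, and 34 of 37 did so in dmpnpaseKO, where 40.9% of all such genes did. Among genes averaging at least 1 TPM it was 15 of 16 enzymes in controls, beside 70.7% of nuclear-encoded genes, and 16 of 16 in dmpnpaseKO, beside 58.2%. The counts in dmpnpaseKO rest on 1 cytosolic library with values, since the other lists all 37 genes at 0. Between genotypes, the share of the mitochondrial libraries overlapped.

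Single genes showed the same contrast of fractions. Jon65Aiv, the Jonah protease with the highest mean, had 0.629 and 0 TPM in the control cytosol and 18.9 and 4.19 TPM in control mitochondria, where it ranked 5 and 15 among all nuclear-encoded genes. betaTry, the trypsin with the highest mean and the gene above 0 in the most libraries (7 of 8), had 0.324 and 0.297 TPM in the control cytosol and 4.28 and 1.06 TPM in control mitochondria. For both genes the control fractions did not overlap.

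This contrast was tested with limma on log2(scaled TPM + 1), each library being scaled on its rRNA pseudogenes, for the 475 genes whose mean reached 1 TPM. Of the digestive enzymes 16 passed this filter: 11 Jonah proteases, alphaTry, betaTry, deltaTry, epsilonTry and Mal-A1. Only 6 of them would pass without the dmpnpaseKO mitochondrial libraries (Jon65Aiv, Jon99Cii, Jon25Biii, Jon66Ci, betaTry and deltaTry), so counts over the 16 are descriptions and not support for a difference. The last genes inside were Jon25Bi and Mal-A1, with means of 1.16 and 1.01 TPM, and the first outside were Jon66Cii and Mal-A6, with 0.921 and 0.857 TPM. In control larvae no digestive enzyme differed between fractions after Benjamini-Hochberg adjustment (limma, 0 of 16, smallest adjusted p = 0.329), beside 0.842% of the 475 genes called higher. Without adjustment, 5 of the 16 had a p under 0.05. The median difference was 1.17 on the log2 scale over the 16 genes and 0.50 over all 475. In dmpnpaseKO larvae all 16 were higher in mitochondria, beside 81.1% of the 475 genes (35 of 37 with no filter, beside 49.2%), and the median difference was 4.00 over the 16 and 2.42 over all. When libraries were instead scaled to equal nuclear-encoded TPM, 0 of the 16 were called in dmpnpaseKO, beside 0.842% of the 475 genes. The smallest adjusted p of the 16 was then 0.0522 (limma), with 15 at an unadjusted p under 0.05.

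The central comparison was between genotypes within the mitochondrial fraction. In deposited TPM, 32 of the 37 genes had both dmpnpaseKO libraries above both controls (13 of 16 Jonah proteases, 9 of 11 trypsins, 8 of 8 maltases and 2 of 2 amylases). This order held for 62.3% of all genes above 0 in any library and for 88.8% of those with a mean of at least 1 TPM. The genes whose genotypes overlapped were Jon25Bi, Jon44E, Jon99Ci, gammaTry and iotaTry. Summed over all 37 genes, dmpnpaseKO replicate 1 held 7.73 times the TPM of control replicate 1, and replicate 2 held 11.5 times that of control replicate 2. The total of all nuclear-encoded TPM was 8.98 and 7.76 times as high, more than the enzymes in replicate 1 and less in replicate 2.

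In the limma test 15 of the 16 enzymes rose in dmpnpaseKO mitochondria after Benjamini-Hochberg adjustment, all but Jon25Bi. Of all 475 genes 78.7% rose and 2.53% fell, so the count of enzymes is near the background. Their median change was 2.63 on the log2 scale against 2.23 over all genes. This order turned under equal nuclear-encoded TPM (0.13 against 0.39), median-of-ratios scaling (0.85 against 0.95) and a pseudocount of 0.1 (3.22 against 3.47). It also turned with a minimum mean of 5 TPM (2.82 against 3.30). The same held without control mitochondria replicate 2 (1.93 against 2.08) and without dmpnpaseKO mitochondria replicate 1 (1.89 against 1.92). Leaving out control mitochondria replicate 2 left 5 of the 16 called, beside 56.2% of the 475 genes, and leaving out dmpnpaseKO mitochondria replicate 1 left 6, beside 53.1%. Scaling to equal nuclear-encoded TPM left 0 called, beside 0.211% of the 475 genes, and turned the direction of 6 enzymes. The smallest adjusted p of the 16 was then 0.0915 (limma), with 3 at an unadjusted p under 0.05. Median-of-ratios scaling left 1 called, beside 1.26% of all genes, and a pseudocount of 0.1 left 5, beside 38.3%. With no filter, 28 of the 37 enzymes rose, beside 47.2% of all genes above 0 in any library.

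**Figure D3:**
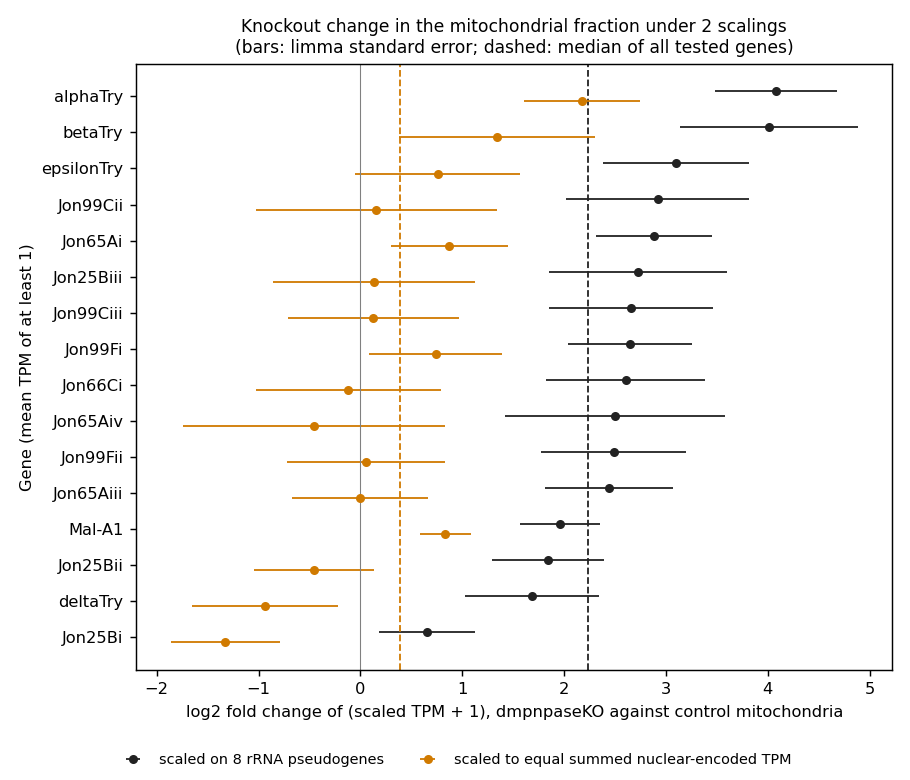
log2 fold change of (scaled TPM + 1) between dmpnpaseKO and control mitochondria (horizontal axis) for the 16 tested enzymes, with limma standard errors as bars. Black points are scaled on the 8 rRNA pseudogenes and orange points to equal nuclear-encoded TPM, and the dashed lines mark the medians of all 475 genes, 2.23 and 0.39. alphaTry and betaTry lie highest and Jon25Bi lowest under both scalings.

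Among the trypsins, alphaTry and betaTry rose most. alphaTry had 0.518 and 0.179 TPM in control mitochondria against 34.9 and 13.1 TPM in dmpnpaseKO mitochondria, with 0 in both control cytosol libraries and 0.240 and 0 TPM in the dmpnpaseKO cytosol. The genotypes did not overlap and the means differed 68.8-fold, or 4.08 ± 0.60 (SE) on the scaled log2 scale (limma, adjusted p = 0.000741). Under equal nuclear-encoded TPM the change was 2.18 ± 0.57 (adjusted p = 0.0915).

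betaTry rose from the control mitochondrial values above to 78.4 and 31.6 TPM in dmpnpaseKO mitochondria, 20.6-fold in the means and 4.01 ± 0.88 on the log2 scale (limma, adjusted p = 0.00134). It stood next to Jon65Aiv as the second most abundant enzyme in both libraries. epsilonTry had 2.87 and 0.420 TPM in control mitochondria against 38.9 and 8.34 TPM in dmpnpaseKO mitochondria, a change of 3.10 ± 0.72 (limma, adjusted p = 0.00182).

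deltaTry rose least of the tested trypsins. It had 4.60 and 1.70 TPM in control mitochondria against 18.0 and 6.59 TPM in dmpnpaseKO mitochondria, a 3.91-fold difference of the means and a log2 change of 1.69 ± 0.66 (limma, adjusted p = 0.0289), which turned to -0.93 ± 0.72 under equal nuclear-encoded TPM and to -0.23 under median-of-ratios scaling. In control mitochondria it was the highest trypsin, above betaTry in both libraries, and in dmpnpaseKO it was below alphaTry and betaTry in both.

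gammaTry, a trypsin nearly identical to deltaTry, had 3.22 and 0 TPM in control mitochondria against 0 and 1.40 TPM in dmpnpaseKO mitochondria. Reads that fit near-identical copies can be assigned to either, so the values of deltaTry and gammaTry are uncertain one by one. Their sum was 48.6% and 45.9% of all trypsin TPM in control mitochondria, compared with 10.1% and 12.6% in dmpnpaseKO mitochondria. The predicted genes CG30031 and CG30025, which lie between gammaTry and deltaTry, are not among the 37 genes. CG30025 had 0.922 and 0 TPM in control mitochondria against 12.7 and 8.97 TPM in dmpnpaseKO mitochondria, and CG30031 had 9.86 TPM in dmpnpaseKO mitochondria replicate 1 and was listed at 0 elsewhere. With both added to deltaTry, gammaTry and the trypsin total, the share was 51.4% and 45.9% in controls against 20.2% and 23.4% in dmpnpaseKO, still without overlap.

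The other 6 trypsins (zetaTry, thetaTry, lambdaTry, kappaTry, etaTry and iotaTry) stayed at or below 0.234 TPM in control mitochondria and at or below 2.25 TPM in dmpnpaseKO mitochondria. iotaTry was above 0 in a single library, dmpnpaseKO mitochondria replicate 1, at 0.676 TPM. None of these 6 reached a mean of 1 TPM.

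Of the Jonah proteases, Jon65Aiv rose to 80.5 and 35.7 TPM in dmpnpaseKO mitochondria, 5.03-fold in the means and 2.50 ± 1.08 on the log2 scale (limma, adjusted p = 0.0443). It was the highest of the 37 genes in each mitochondrial library of either genotype. Jon99Cii had 6.99 and 1.62 TPM in control mitochondria against 62.7 and 16.1 TPM in dmpnpaseKO mitochondria, a change of 2.92 ± 0.90 (limma, adjusted p = 0.00848). Neither gene overlapped between genotypes, and under equal nuclear-encoded TPM the changes were -0.46 ± 1.29 and 0.16 ± 1.19.

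Jon65Ai had the largest ratio among the Jonah proteases above 0 in both controls. Its 0.953 and 0.283 TPM in control mitochondria compared with 17.7 and 6.07 TPM in dmpnpaseKO mitochondria, 19.2-fold in the means and 2.88 ± 0.57 on the log2 scale (limma, adjusted p = 0.00104). Jon74E, which was not tested because of its low mean, had 0.0220 and 0 TPM in control mitochondria against 3.82 and 2.09 TPM in dmpnpaseKO mitochondria.

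Jon25Bi was at the other end. It had 2.47 and 0.622 TPM in control mitochondria against 4.32 and 1.46 TPM in dmpnpaseKO mitochondria, so the genotypes overlapped, and its change of 0.65 ± 0.47 did not pass the test (limma, adjusted p = 0.207). It was -1.33 ± 0.54 under equal nuclear-encoded TPM and -0.88 under median-of-ratios scaling. Jon25Biii, in the same cluster, had 6.08 and 0.829 TPM in control mitochondria against 46.3 and 9.83 TPM in dmpnpaseKO mitochondria, a change of 2.72 ± 0.87 (limma, adjusted p = 0.0101). The ratio of Jon25Biii to Jon25Bi within a library was 2.46 and 1.33 in control mitochondria, compared with 10.7 and 6.74 in dmpnpaseKO mitochondria, so it did not overlap between genotypes.

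The other 6 tested Jonah proteases lay between these. In control mitochondria Jon66Ci had 6.75 and 1.47 TPM, Jon99Ciii 5.13 and 0.743, Jon99Fii 3.39 and 0.651, Jon65Aiii 2.68 and 0.845, Jon25Bii 2.26 and 0.754, and Jon99Fi 1.32 and 0.149. In dmpnpaseKO mitochondria Jon66Ci had 39.8 and 14.8 TPM, Jon99Ciii 47.1 and 7.08, Jon99Fii 24.2 and 7.31, Jon65Aiii 20.8 and 7.59, Jon25Bii 11.0 and 4.75, and Jon99Fi 18.4 and 4.13. Their log2 changes lay between 1.84 for Jon25Bii and 2.66 for Jon99Ciii, each passed the limma test, and in each the genotypes did not overlap. Under equal nuclear-encoded TPM the changes of Jon25Bii, Jon66Ci and Jon65Aiii turned to -0.46, -0.12 and -0.0057.

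The maltases were low, and as a family they had the highest ratios between genotypes, 27.9 and 24.1 for replicates 1 and 2, beside 11.1 and 17.2 for trypsins and 6.54 and 9.61 for Jonah proteases. Mal-A1, the only maltase tested, had 0.155 and 0.0227 TPM in control mitochondria against 6.32 and 1.54 TPM in dmpnpaseKO mitochondria, 44.3-fold in the means and 1.96 ± 0.39 on the log2 scale (limma, adjusted p = 0.00104). The log2 value is smaller than the ratio because the pseudocount of 1 TPM exceeds the control levels. Mal-A6 and Mal-A3 followed with 5.60 and 1.09 TPM and with 4.39 and 2.07 TPM in dmpnpaseKO mitochondria. Mal-A5 differed from the rest: it was above 0 in 6 of the 8 libraries, including 0.129 TPM in control cytosol replicate 2, and its 0.572 and 0.352 TPM in dmpnpaseKO mitochondria were 4.06-fold above the 0.141 and 0.0863 TPM of controls. The other 4 maltases above 0 in both controls had ratios of means between 20.4 and 44.3, and their median with Mal-A5 was 34.5.

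The amylases are near-identical duplicated genes, so reads may again be split between them. Amy-p had 0.240 and 0 TPM in control mitochondria against 3.34 and 0.859 TPM in dmpnpaseKO mitochondria. Amy-d had 0 and 0.177 TPM in controls against 0.589 and 0.467 TPM in dmpnpaseKO. Both were above the controls in both knockout libraries, and neither was tested because of its low mean.

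The make-up of the enzyme RNA differed between genotypes in the mitochondrial fraction. The ratio of summed trypsin to summed Jonah TPM was 0.272 and 0.296 in control mitochondria, compared with 0.459 and 0.529 in dmpnpaseKO mitochondria. Maltases over Jonah proteases came to 0.0123 and 0.0201 in controls and to 0.0526 and 0.0503 in dmpnpaseKO. Neither of these ratios overlapped, while amylases over Jonah proteases did (0.00405 and 0.0142 in controls, 0.0101 and 0.0111 in dmpnpaseKO). With 2 libraries against 2 an exact permutation test, two-sided, gives no p below 0.333. In the cytosol, trypsins over Jonah proteases came to 0.195 and 0.226 in controls and 0.352 in the dmpnpaseKO library with values, and maltases over Jonah proteases came to 0 and 0.0979 in controls and 0.0308 in that library. These ratios are formed within a library, so no scaling between libraries changes them.

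Within the families, alphaTry made up 3.22% and 4.86% of trypsin TPM in control mitochondria, compared with 19.6% and 20.7% in dmpnpaseKO mitochondria, and betaTry 26.6% and 28.7% against 44.1% and 49.8%. Jon65Ai made up 1.61% and 2.27% of Jonah TPM in controls against 4.57% and 5.07% in dmpnpaseKO, while Jon25Bi made up 4.17% and 4.99% against 1.12% and 1.22%. Mal-A5 made up 19.3% and 34.5% of maltase TPM in controls against 2.81% and 5.84% in dmpnpaseKO.

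**Figure D4:**
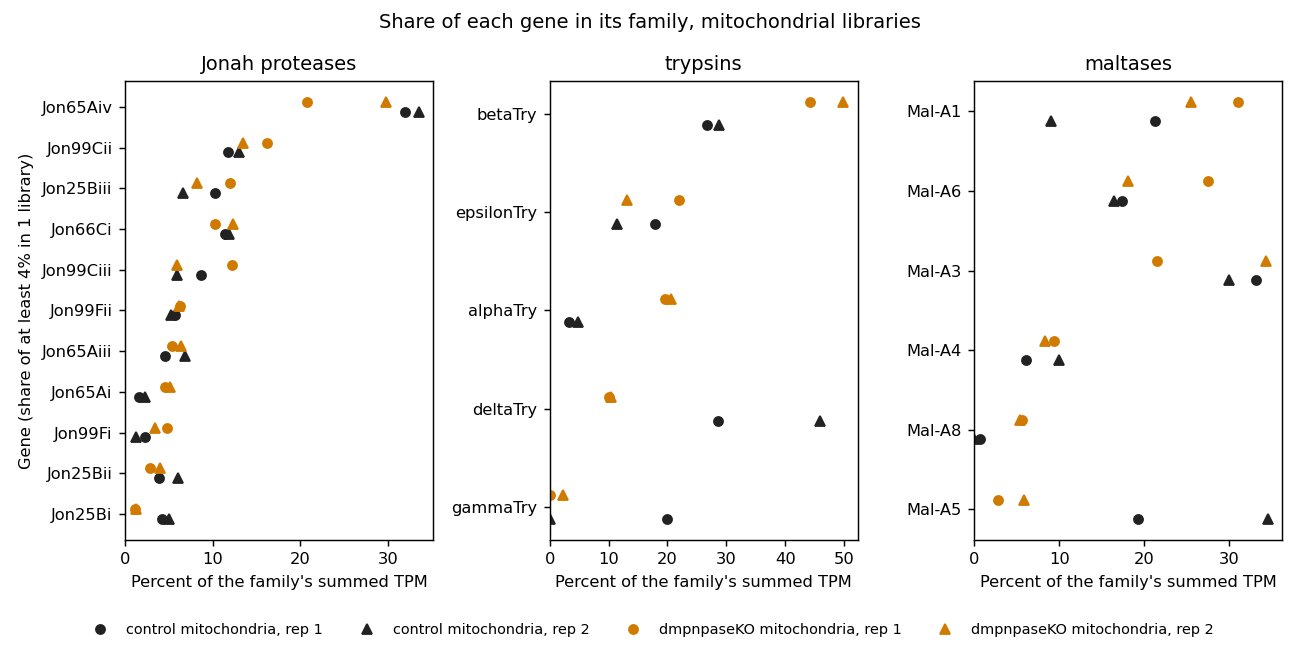
Percent of the family's summed TPM (horizontal axis) taken by each Jonah protease, trypsin and maltase with a share of at least 4% in 1 mitochondrial library, in control (black) and dmpnpaseKO (orange) mitochondria, circles for replicate 1 and triangles for replicate 2. alphaTry and betaTry shift to higher shares in dmpnpaseKO, and deltaTry, Jon25Bi and Mal-A5 to lower shares.

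As a share of all nuclear-encoded TPM, 12 of the 37 enzymes had both dmpnpaseKO mitochondrial libraries above both controls, where 24.8% of nuclear-encoded genes above 0 in any library did. They were alphaTry, betaTry, lambdaTry, Jon65Ai, Jon74E and the maltases other than Mal-A5. A lower share was found for 6 of 37, where 11.8% of such genes did: Jon25Bi, Jon25Bii, Jon65Aii, deltaTry, thetaTry and Mal-A5. The lower share of deltaTry depends on how reads were assigned among near-identical trypsin copies, so it is uncertain. Among genes averaging at least 1 TPM, 4 of 16 enzymes had the higher share, beside 50.8% of nuclear-encoded genes, and 3 of 16 the lower one, beside 14.2%. The other enzymes overlapped between genotypes.

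The order of the enzymes by TPM was much alike in the mitochondrial libraries. Across the 37 genes, which are not independent replicates, Spearman's rho was 0.777 between the control replicates, 0.924 between the dmpnpaseKO replicates and 0.775 to 0.833 between genotypes. Replicate 1 was higher than replicate 2 for 34 of 37 genes in control mitochondria and for 36 of 37 in dmpnpaseKO mitochondria, beside 56.5% and 85.1% of nuclear-encoded genes. The summed enzyme TPM differed 4.60-fold and 3.09-fold between these replicates, and all nuclear-encoded TPM 1.75-fold and 2.02-fold. The spread between replicates was thus wider for the enzymes than for nuclear-encoded RNA as a whole.

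In the cytosolic fraction no enzyme differed between genotypes (limma, Benjamini-Hochberg adjustment, 0 of 16, with 0 at an unadjusted p under 0.05), beside 0% of the 475 genes, of which 47 had an unadjusted p under 0.05. dmpnpaseKO cytosol replicate 1 had its highest enzyme values in Jon65Aiv (2.34 TPM) and betaTry (1.04 TPM), and replicate 2 listed all at 0. The other tested enzymes above 0 in replicate 1 were Jon25Biii (0.525 TPM), Jon99Fi (0.496), Jon99Cii (0.469), deltaTry (0.418), Jon25Bi (0.381), Jon65Aiii (0.291), Jon25Bii (0.265), alphaTry (0.240), Jon66Ci (0.132), Jon65Ai (0.107) and Mal-A1 (0.0331). In the control cytosol, Jon99Cii reached 1.21 TPM in replicate 1, and Jon25Biii (0.587 TPM) and Jon99Fii (0.533 TPM) were highest in replicate 2. Besides these and Jon65Aiv and betaTry, values above 0 were 0.324 TPM for Jon66Ci, 0.298 TPM for Jon99Fii and 0.156 TPM for epsilonTry in replicate 1, and 0.194 TPM for Jon65Ai and 0.129 TPM for Mal-A5 in replicate 2. Only betaTry and Jon99Fii were above 0 in both control libraries. The knockout effect was larger in the mitochondrial than in the cytosolic fraction for 7 of the 16 enzymes (limma interaction, Benjamini-Hochberg adjustment), beside 30.5% of the 475 genes (6 of 37 with no filter, beside 18.6%). Most cytosolic enzyme values lay below the added pseudocount, which limits the cytosolic change, so this test largely repeats the mitochondrial change. The count of 7 did not hold when a control library of either fraction was left out, and few or none of the 475 genes were called then. It also fell without dmpnpaseKO cytosol replicate 2 or dmpnpaseKO mitochondria replicate 1, and it rose without dmpnpaseKO cytosol replicate 1. The share of all 475 genes called fell and rose with it. The median difference was 2.69 over the 16 enzymes and 1.98 over all 475 genes. Among the fits with 1 library left out, this median was lowest without dmpnpaseKO mitochondria replicate 1 (1.91 against 1.69). It was highest there without dmpnpaseKO mitochondria replicate 2 (3.41 against 2.29). Under other scalings it was lower, at 0.50 against 0.07 with equal nuclear-encoded TPM and 1.38 against 0.98 with median-of-ratios scaling.

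Most of the enzyme genes are clustered. The 11 trypsins lie within chromosome 2R from 11336840 to 11357537, the 8 maltases within 2R from 8449664 to 8473961 and the 2 amylases within 2R from 17118636 to 17126369 (BDGP6). Jonah proteases lie in groups of 3 (Jon25B on 2L from 4949941 to 4955144, and Jon99C on 3R from 29922216 to 29926189), 4 (Jon65A on 3L from 6039155 to 6054443) and 2 (Jon66C on 3L from 8391540 to 8393649, and Jon99F on 3R from 30487016 to 30489895), with Jon44E and Jon74E alone. The summed TPM of these groups in dmpnpaseKO mitochondria was 5.97 times that in control mitochondria for Jon25B, 6.03 times for Jon65A, 6.88 times for Jon66C, 9.09 times for Jon99C and 9.81 times for Jon99F. The trypsin cluster came to 12.2 times, and within it alphaTry and deltaTry differed as given above, so members of a cluster did not all change alike. Over the other nuclear-encoded genes, the median ratio of means was 13.2 for those averaging at least 1 TPM. It was 8.10 for all those above 0 in control mitochondria.

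All 11 trypsins, both amylases and 11 of the 16 Jonah proteases have a single exon in their longest transcript, and none of the 8 maltases does. The longest transcripts measure 810 to 1071 bp for trypsins, 827 to 1397 bp for Jonah proteases and 1786 to 2717 bp for maltases. Annotated genes on the opposite strand overlap Jon44E by 49 bp, Mal-A1 by 82 bp, Mal-A8 by 6 bp and deltaTry by 15 bp. The libraries were made with a directional kit, but the strand setting of the quantification is not given in the sources used here. The TPM hold a single value per gene, so sense and antisense RNA of an enzyme gene cannot be told apart.

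Other gut genes gave the following values beside the enzymes. The 7 gut epithelium markers, among them the peritrophic matrix genes Peritrophin-15a and Peritrophin-15b, summed to 4.25 and 1.39 TPM in control mitochondria, 28.8 and 8.93 TPM in dmpnpaseKO mitochondria, 0 and 0.297 TPM in the control cytosol and 0.308 and 0 TPM in the dmpnpaseKO cytosol. Both tested markers rose in dmpnpaseKO mitochondria on the rRNA scaling (limma, adjusted p = 0.0068 and 0.00623). As a share of nuclear-encoded TPM the 7 markers together overlapped, at 0.322% and 0.184% in controls and 0.243% and 0.152% in the knockout. Peritrophin-15a and Peritrophin-15b made up most of that sum. The low markers mex1 (0.0199% and 0.0150%, beside 0.00152% and 0.0118% in controls) and Myo31DF (0.00869% and 0.00983%, beside 0.00492% and 0.00271%) had higher shares in the knockout. The shares of the other markers overlapped. On the rRNA scaling 78.7% of all 475 genes rose and 2.53% fell, so rises among the marker genes are near this background. Genes listed for other tissues moved in both directions. All 4 larval cuticle genes Lcp1 to Lcp4 and 4 of 5 tested fat body genes fell. The remaining fat body gene, apolpp, had 3.82 and 3.10 TPM in control mitochondria against 33.9 and 26.1 TPM in dmpnpaseKO mitochondria. Its change did not pass the test (limma, adjusted p = 0.0971). Of the muscle list 5 of 6 tested genes rose. Of the haemocyte list only vkg and Col4a1 were tested, and both rose. Hml, NimC1 and Pxn were too low to be tested. As a share of nuclear-encoded TPM the muscle list was lower in dmpnpaseKO mitochondria (1.40% and 1.46%, beside 1.77% and 1.70% in controls). The share of the haemocyte list, mostly vkg and Col4a1, overlapped. The shares of the low genes Hml, NimC1 and Pxn were lower without overlap. In dmpnpaseKO mitochondria they were 0.00647% and 0.00464% for Hml, 0.000986% and 0.00126% for NimC1, and 0.00469% and 0.00466% for Pxn. In controls they were 0.00840% and 0.0169%, 0.00149% and 0.00822%, and 0.00999% and 0.00849%. The summed cuticle level was 97.2 and 42.2 TPM in control mitochondria against 4.21 and 0.970 TPM in dmpnpaseKO mitochondria. The summed salivary gland level was 1.68 and 3.64 TPM in controls against 0.0118 and 0 TPM in dmpnpaseKO. The part of tissue make-up in the enzyme results was not tested.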

How the data were processed

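The authors quantified the reads with salmon 0.11.3 against the BDGP6 cDNA set and deposited TPM values for 13970 genes in 8 libraries, not scaled on rRNA. The step from transcript to gene values is not given in the sources used here. Libraries were matched to groups by their labels, and 0 columns of values had no label. Symbols were matched for 13745 genes, and positions are from Ensembl release 115 (BDGP6).

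Each library was scaled on the arithmetic mean of the 8 rRNA pseudogenes that the study's methods name. log2(scaled TPM + 1) was fitted with limma 3.58.1 in R 4.3.3 (4 group means, eBayes with a trend) for the 475 genes with a mean TPM of at least 1, with Benjamini-Hochberg adjustment at 0.05. The filter acts on the mean of all libraries, and the log2 changes of low genes are understated. TPM carry no depth, so no counting intervals or floors are given. The spread of a gene is estimated over all 8 libraries, so scatter in the cytosol also enters tests within the mitochondrial fraction. The fit was tested on simulated data.

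By rule, enzymes with a mean of at least 1 TPM are given with their library values and tests, and the others by family in ranges and counts with the highest named. Untested genes named beyond that (such as Jon74E, Mal-A5, gammaTry and CG30025) were chosen after their values were seen. The 37 genes, the marker lists and the alternatives were chosen with earlier results of these data known. The alternatives were other scalings, pseudocounts and filters, no trend, the groups of a contrast alone, the replicate number as a block, and omission of single libraries.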

Additional observations from a re-analysis of the deposited data

Results flagged for a closer look

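The effect of the knockout differed between fractions for 7 of the 16 tested enzymes, by the test of the difference itself in limma with Benjamini-Hochberg adjustment. The difference, mitochondrial minus cytosolic change on the log2 scale, was 4.03 ± 1.24 (SE, adjusted p = 0.0396) for betaTry, 3.93 ± 0.85 (adjusted p = 0.0297) for alphaTry and 3.21 ± 1.02 (adjusted p = 0.0396) for epsilonTry. These are the 3 trypsins with the largest changes in the mitochondrial fraction. For the Jonah proteases it was 3.16 ± 1.00 for Jon99Fii, 3.03 ± 0.80 for Jon65Ai and 2.37 ± 0.86 for Jon99Fi (limma, adjusted p = 0.0396, 0.033 and 0.0487). For Mal-A1 it was 1.94 ± 0.55 (limma, adjusted p = 0.033). The cytosolic values of these 7 genes were at most 1.04 TPM (betaTry), near or below the pseudocount of 1 TPM. Their cytosolic changes lay between -0.68 (Jon99Fii) and 0.27 (Jon99Fi). The difference therefore largely repeats the mitochondrial change, which was 4.08 for alphaTry and 1.96 for Mal-A1. Of the 7 genes, 6 reached a mean of 1 TPM only through the dmpnpaseKO mitochondrial libraries, in which they are high (all but betaTry), so their differences are descriptions and not independent support. All 7 were listed at 0 in dmpnpaseKO cytosol replicate 2, and without that library 3 enzymes were called, beside 12% of the 475 genes. Of all 475 genes, 30.5% had a difference in this direction.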

How the results depend on the processing

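The counts of enzymes called depended on the processing. For dmpnpaseKO against control mitochondria, 15 of 16 became 1 under median-of-ratios scaling, 0 under equal nuclear-encoded TPM and 5 with a pseudocount of 0.1. The shares of all 475 genes called higher were then 1.26%, 0.211% and 38.3%. The count of enzymes was 30 of 34 with a minimum mean of 0.1 TPM, 7 of 8 with a minimum of 5 and 28 of 37 with no minimum. Beside these, 83.5%, 62.6% and 47.2% of all genes tested were called. For mitochondria against cytosol, the 0 called in controls became 1 under median-of-ratios scaling, beside 1.26% of the 475 genes. The 16 called in dmpnpaseKO became 0 under equal nuclear-encoded TPM, beside 0.842% of the 475 genes. They became 33 with a minimum of 0.1, 8 with a minimum of 5 and 35 with none, beside 84.5%, 67.3% and 49.2% of all genes. For the difference between fractions, 7 became 0 with unscaled TPM, equal nuclear-encoded TPM, a minimum of 5 or no trend. In each of these settings 0% of all genes were called. The 7 also became 0 with median-of-ratios scaling and with a pseudocount of 0.1, beside 0.211% and 0.632% of the 475 genes. They became 11 with a pseudocount of 10 and 22 with a minimum of 0.1, beside 62.5% and 55.2% of all genes. The fit with replicate number as a block called 12 for that difference, beside 49.3% of all genes, and changed no other count (15, 0, 0 and 16). The labels do not say what the numbers share, and deviations of same-numbered libraries correlated at 0.68 between genotypes in mitochondria and -0.01 in the cytosol. Leaving out 1 library at a time gave 5 to 15 called for the knockout in mitochondria, 0 to 0 in the cytosol, 0 to 0 and 15 to 16 between fractions in control and dmpnpaseKO, and 0 to 13 for the difference. Direction in the mitochondrial fraction turned for deltaTry (-0.23) and Jon25Bi (-0.88) under median-of-ratios scaling, which lowers the median of all 475 genes from 2.23 to 0.95. Under equal nuclear-encoded TPM it turned for deltaTry (-0.93), Jon25Bi (-1.33), Jon25Bii (-0.46), Jon65Aiii (-0.0057), Jon66Ci (-0.12) and Jon65Aiv (-0.46). The causes were not tested, beyond that other filters test other numbers of genes.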

Other observations

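Other digestive genes in the larval gut gave values of the same kind in the mitochondrial fraction. The 7 lysozymes, which digest bacterial cell walls, summed to 7.57 and 1.28 TPM in control mitochondria against 59.7 and 24.9 TPM in dmpnpaseKO mitochondria. LysD and LysB rose by 3.60 and 2.74 on the log2 scale (limma, adjusted p = 0.000983 and 0.000741), and LysS, at 1.36, did not pass (limma, adjusted p = 0.0562). LysB had 0.404 and 0 TPM in control mitochondria against 8.85 and 5.29 TPM in dmpnpaseKO mitochondria. Reads may be split between near-identical lysozyme genes, so the levels and shares of single lysozymes are uncertain. LysD had 2.06 and 0.541 TPM in control mitochondria against 39.3 and 15.2 TPM in dmpnpaseKO mitochondria, without overlap. The lipase gene mag rose by 1.43 (limma, adjusted p = 0.0289) on the rRNA scaling, but its share of nuclear-encoded TPM was lower in dmpnpaseKO mitochondria (0.0873% and 0.0508%) than in controls (0.189% and 0.116%). The share of LysD was higher, at 0.332% and 0.259% beside 0.156% and 0.0716%, that of LysS was lower, at 0.0914% and 0.0717% beside 0.367% and 0.0979%, and that of the 7 lysozymes together overlapped.

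Of the other gut serine proteases, yip7 rose by 2.94 and CG10472 by 1.88 (limma, adjusted p = 0.00192 and 0.00649), while their shares of nuclear-encoded TPM overlapped between genotypes. CG18180 had 110 TPM in dmpnpaseKO cytosol replicate 2, the library that lists all 37 enzymes at 0, and 0.113 TPM in replicate 1. In mitochondria it had 9.77 and 1.72 TPM in controls against 46.4 and 11.4 TPM in dmpnpaseKO, and its change of 2.23 did not pass the test (limma, adjusted p = 0.207). The spread in that test also draws on its cytosolic values. The alpha-glucosidases Mal-B1, Mal-B2 and tobi and the amylase relative Amyrel stayed at or below 0.472 TPM in each library.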
